A study of Mus musculus with 17 samples.

Results

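The Serpina3 family of mouse protease inhibitors was followed in the heart through 7 genes, Serpina3n, Serpina3h, Serpina3g, Serpina3m, Serpina3f, Serpina3i and Serpina3c. They are the 7 rows with these symbols among the 28640 genes of the deposited table. The family was chosen by the FPKM of Serpina3n, which earlier results of these data had shown to be higher in tumour-bearing than in tumour-free hearts, so tumour against control is given for the members as a description with no test. Total RNA of 17 mouse hearts was sequenced: 5 hearts of tumour-free mice (control), 6 of mice bearing a transplanted tumour of the colon carcinoma line CT-26 (tumour), and 6 of mice with the same graft that swam as exercise (tumour_swim). The series was set up to ask whether aerobic exercise alters heart dysfunction caused by tumour growth. No tumour-free mice swam, and the sources used here do not give strain, sex, age, graft site or swimming schedule. Whether each sample is a different animal is not labelled, so the p-values reflect only the spread among these libraries, which can be partly technical.

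Serpins are inhibitors that act as bait. The protease cuts an exposed stretch of the inhibitor, the reactive centre loop, and the serpin then snaps into a new shape that traps the enzyme, so the sequence of the loop sets which proteases are caught. Humans have SERPINA3, also called alpha-1-antichymotrypsin, a plasma protein of the acute phase response, and in the mouse this gene has been duplicated into a cluster of related copies. Serpina3n is the best known of them: it is a secreted inhibitor of granzyme B and of neutrophil serine proteases, and its transcript is induced in many tissues during inflammation.

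By GENCODE M21 annotation on GRCm38 the members lie together on chromosome 12. Serpina3n occupies chr12:104406729-104414329 on the plus strand, Serpina3m chr12:104338486-104394257, Serpina3i chr12:104263122-104269372, Serpina3h chr12:104247905-104253669, Serpina3g chr12:104236245-104241939 and Serpina3f chr12:104214544-104221129, all on the plus strand, and Serpina3c chr12:104146382-104153870 on the minus strand. Serpina3h is annotated as a transcribed unprocessed pseudogene and the others as protein coding. The annotated Serpina3m starts at the same base as its neighbour Serpina3k (chr12:104338486-104346144) and spans it.

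RefSeq promoters on GRCm38.p6, from 250 bases before to 50 bases after the annotated start, were matched for 5 of the 7 members, Serpina3c, Serpina3f, Serpina3g, Serpina3i and Serpina3n; Serpina3h and Serpina3m were not matched. The promoters of Serpina3n (chr12:104406458-104406757, plus strand), Serpina3c (chr12:104153823-104154122, minus strand) and Serpina3i (chr12:104262872-104263171, plus strand) are shown because the first pair is the most alike in sequence and Serpina3i differs from both in the motif window. In each, the first block of capitals is a window that resembles a STAT factor motif and the second is the longest run of bases common to all 5 promoters.
Serpina3n: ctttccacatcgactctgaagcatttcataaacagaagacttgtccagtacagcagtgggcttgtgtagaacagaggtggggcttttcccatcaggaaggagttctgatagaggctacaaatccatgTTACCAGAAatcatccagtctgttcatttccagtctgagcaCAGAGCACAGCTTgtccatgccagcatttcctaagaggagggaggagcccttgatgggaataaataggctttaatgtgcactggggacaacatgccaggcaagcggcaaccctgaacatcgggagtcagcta
Serpina3c: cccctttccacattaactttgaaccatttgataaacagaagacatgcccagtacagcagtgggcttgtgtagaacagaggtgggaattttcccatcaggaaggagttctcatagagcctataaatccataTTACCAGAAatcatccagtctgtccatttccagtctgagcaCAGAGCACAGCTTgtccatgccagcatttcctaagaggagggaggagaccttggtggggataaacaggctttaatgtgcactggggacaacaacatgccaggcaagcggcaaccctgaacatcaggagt
Serpina3i: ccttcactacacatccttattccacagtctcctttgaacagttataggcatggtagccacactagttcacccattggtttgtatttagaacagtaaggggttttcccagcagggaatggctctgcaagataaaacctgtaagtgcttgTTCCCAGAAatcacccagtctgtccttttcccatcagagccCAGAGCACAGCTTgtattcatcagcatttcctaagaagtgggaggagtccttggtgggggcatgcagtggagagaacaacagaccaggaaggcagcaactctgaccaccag

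The common run, CAGAGCACAGCTT, is 13 bases long and occurs in 7 of 32851 RefSeq promoters (0.0213%), which belong to 6 genes: the 5 members and Olfr374. Relative to the start site it begins at base -82 in Serpina3n, -79 in Serpina3c and -61 in Serpina3i. The promoters of Serpina3n and Serpina3c were 89.9% identical in an alignment, and the next most alike pair, Serpina3f and Serpina3i, was 67.7% identical. The STAT motif, searched as TTCNNNGAA on both strands, is present in 8.3% of all promoters and in 3 of the 5 members, Serpina3f, Serpina3g and Serpina3i. In the aligned window Serpina3n and Serpina3c both carry C3A against Serpina3i and Serpina3f carries C5T, with positions counted from 1 at the 5′ end of the window. The glucocorticoid receptor motif, searched as ACANNNTGT on both strands, are present in 6.85% of all promoters and in 4 of the 5 members, where they overlap the common run. A C/EBP motif, TTGCNNAA on both strands, is present in 10.8% of promoters and in 1 member. An interferon-stimulated element, searched on both strands, is present in 3.44% of promoters and in 0 of the 5. These matches describe letters in a window and say nothing of whether a factor binds there.

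The bases that encode the reactive centre loop, the part of a serpin that meets the protease, were compared between members with loops of equal length. The loop was located by a nearly fixed run of residues on each side, so likeness of the flanking bases follows from the search. The loop-coding stretches of 4 members from GENCODE M21 transcripts are shown; capitals mark the bases between the conserved hinge and the conserved bases that follow the loop.
Serpina3n: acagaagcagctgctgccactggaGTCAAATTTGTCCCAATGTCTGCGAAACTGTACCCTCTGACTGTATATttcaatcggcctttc
Serpina3h: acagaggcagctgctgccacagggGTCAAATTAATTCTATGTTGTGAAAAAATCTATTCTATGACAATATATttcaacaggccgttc
Serpina3i: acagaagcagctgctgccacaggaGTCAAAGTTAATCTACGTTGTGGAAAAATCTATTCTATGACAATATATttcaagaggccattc
Serpina3m: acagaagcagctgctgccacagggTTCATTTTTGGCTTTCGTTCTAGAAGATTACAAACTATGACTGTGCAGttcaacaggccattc

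Over these 48 loop bases Serpina3n was 64.6% identical to Serpina3h, 62.5% to Serpina3i, 52.1% to Serpina3m and 45.8% to Serpina3g. The 39 flanking bases, whose likeness the search required, were 84.6% to 89.7% identical in the same pairs. Serpina3h and Serpina3i were the closest pair, with 89.6% identity in the loop and 89.7% in the flanks. No loop was located by the same search in Serpina3f. Because the copies are alike, reads can be placed on the wrong member. Of all 50-base stretches of its transcripts, Serpina3n shares 6.9% with another gene, Serpina3c 4.25%, Serpina3f 10.6%, Serpina3g 15.5%, Serpina3i 15.9%, Serpina3m 19.1% and Serpina3h 21.9%. At 100 bases the share was at most 6.09%, in Serpina3m. The sources used here do not say how reads that fit several copies were counted, so values of Serpina3h, Serpina3i, Serpina3g and Serpina3m are uncertain to that extent, and so are those of Serpina3m where it overlaps Serpina3k.

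**Figure D1:**
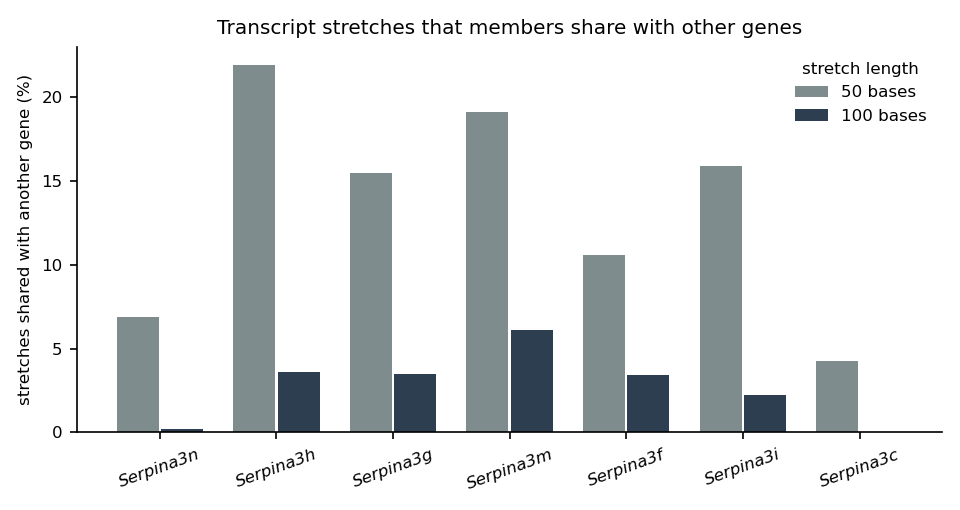
Percentage of transcript stretches of 50 bases (light bars) and 100 bases (dark bars) that each member shares with another gene, from GENCODE M21 transcripts. Serpina3h is highest at 50 bases, with 21.9%, and no member exceeds 6.09% at 100 bases.

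Serpina3n was by far the most abundant member in every group. Values are FPKM, fragments per kilobase of exon scaled to library depth, as deposited. Control hearts held 8.82, 3.95, 5.36, 5.52 and 5.64 FPKM, tumour hearts 103 to 334 with a median of 206, and tumour_swim hearts 52.6 to 258 with a median of 105. Every tumour-bearing heart, swum or not, lay above every control, and the tumour and tumour_swim ranges overlapped, with 3 of the 6 swum hearts below the lowest tumour heart. The means were 5.86 ± 1.79 (SD, n = 5), 214 ± 98.3 (n = 6) and 134 ± 77.3 (n = 6), a mean 36.5 times the control level in tumour and 22.9 times in tumour_swim. By mean FPKM the gene ranked 4995 of 28640 in control hearts, 174 in tumour hearts and 287 in tumour_swim hearts. The values rest on 976, 45776 and 25731 reads summed over the groups.

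Serpina3h, the pseudogene copy whose loop bases are nearest to those of Serpina3i, was the next most abundant. Its FPKM was 1.56, 1.86, 1.69, 1.51 and 2.09 in controls, 8.15 to 15.2 in tumour hearts (median 10.6) and 3.71 to 9.40 in tumour_swim hearts (median 6.73). Neither tumour-bearing group overlapped the controls, and 5 of the 6 swum hearts lay below the lowest tumour heart. The mean FPKM was 1.74 ± 0.236 in control (SD, n = 5), 11.2 ± 2.39 in tumour (n = 6) and 6.36 ± 2.02 in tumour_swim (n = 6).

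Serpina3i, a protein-coding neighbour of Serpina3h, was scarce in controls, at 0.129, 0.210, 0.0575, 0.217 and 0.179 FPKM. It was at 1.00 to 2.24 in tumour hearts (median 1.49) and 0.844 to 2.31 in tumour_swim hearts (median 1.41). The tumour-bearing groups lay entirely above the controls and covered nearly the same range as each other. Its mean FPKM was 0.159 ± 0.0663 (SD, n = 5), 1.53 ± 0.498 (n = 6) and 1.42 ± 0.527 (n = 6). The ratio of the tumour mean to the tumour_swim mean was 1.07, the lowest among the members, against 1.76 for Serpina3h.

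Serpina3c, whose promoter is the nearest match to that of Serpina3n, had the highest control level relative to its tumour level. Controls held 1.06, 0.604, 0.751, 0.817 and 1.35 FPKM, tumour hearts 2.01 to 3.87 (median 2.94) and tumour_swim hearts 1.69 to 3.27 (median 1.87). Every tumour-bearing heart exceeded every control, and 4 of the 6 swum hearts lay below the lowest tumour heart. The means were 0.918 ± 0.294 (SD, n = 5), 2.95 ± 0.788 (n = 6) and 2.13 ± 0.593 (n = 6).

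Serpina3m was listed at 0 in 4 of the 5 controls, and control 4 held 0.175 FPKM, the whole control signal of 5 reads. Tumour hearts held 0.571 to 3.71 FPKM (median 1.54) from 314 reads and tumour_swim hearts 0.412 to 1.81 (median 0.618) from 149 reads. All tumour-bearing hearts lay above control 4, and 3 swum hearts lay below the lowest tumour heart. In control 4 the liver transcripts Alb and Apoa2 and the overlapping neighbour Serpina3k were also at the highest control values, 3.34, 5.95 and 0.615 FPKM; the part of these in the Serpina3m value was not tested. No ratio of means against control is given, since it would rest on that library alone, and the fitted log2 differences given further on depend on the pseudocount.

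Serpina3g, known as an intracellular inhibitor of lysosomal cysteine cathepsins in white blood cells, and Serpina3f were near the limit of detection. Serpina3g was at 0.113 to 0.742 FPKM in tumour hearts (median 0.328), 0.0918 to 0.374 in tumour_swim hearts (median 0.233) and 0 to 0.159 in controls (median 0.115). Its groups overlapped, with 5 tumour and 4 tumour_swim hearts above all controls. Serpina3f was at 0.0297 to 0.376 in tumour hearts (median 0.165), 0 to 0.141 in tumour_swim hearts (median 0.0278) and 0 to 0.116 in controls, where 3 of 5 were at 0. The Serpina3f values rest on 44 reads in tumour, 9 in tumour_swim and 5 in control. The lowest tumour heart held 1 read, so no order is read among the lowest hearts.

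**Figure D2:**
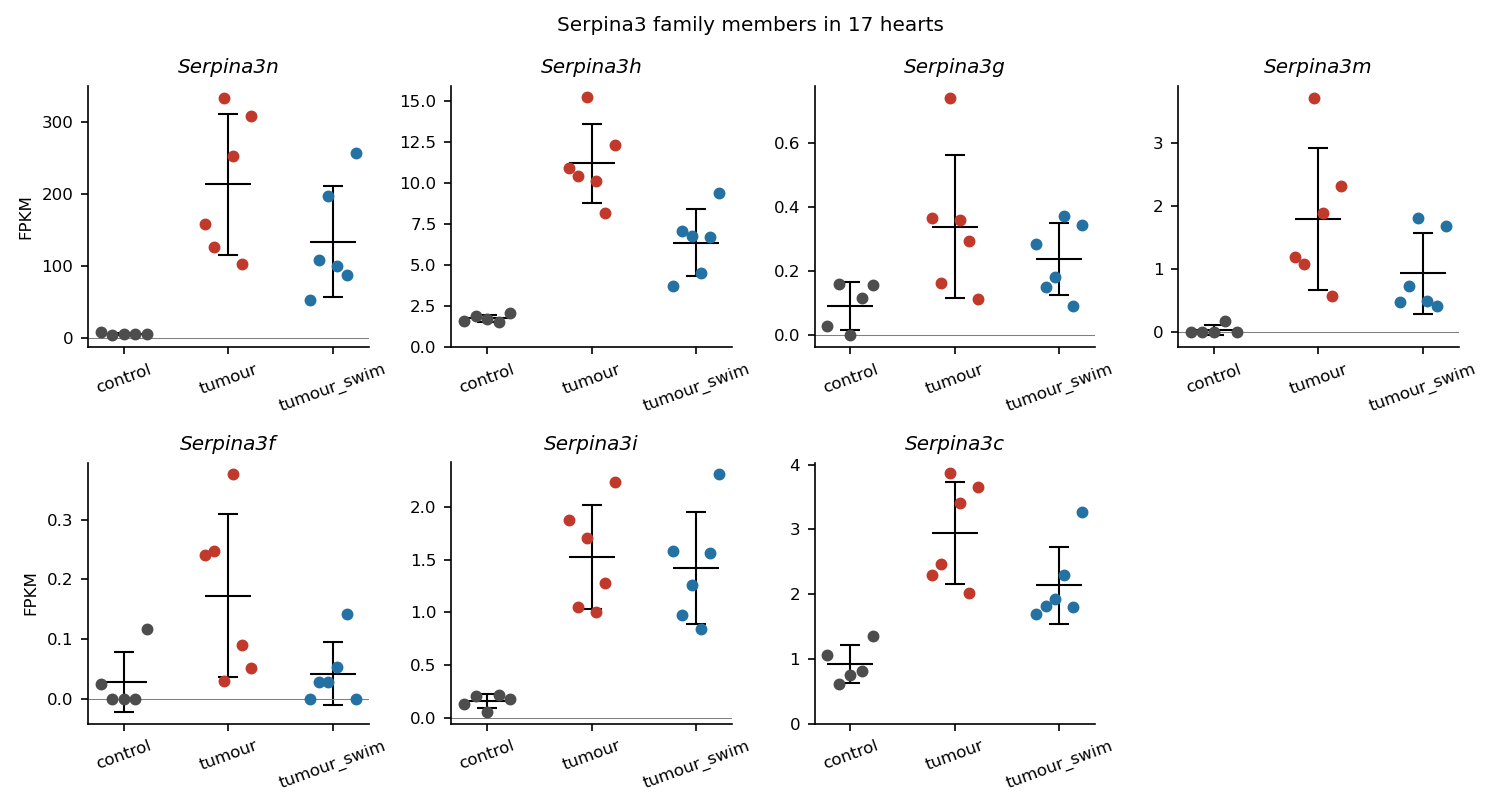
FPKM of the 7 members (vertical axes, linear and scaled per gene) in each of the 17 hearts, by group; points are hearts in replicate order, horizontal bars the group mean and vertical bars the SD. Serpina3n reaches 334 FPKM in a tumour heart while Serpina3g and Serpina3f stay below 1, and the tumour and tumour_swim points of Serpina3i cover almost the same range.

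Serpina3n supplied 65.5% ± 7.21 of the summed FPKM of the 7 members in control hearts (SD, n = 5), 91.5% ± 2.19 in tumour hearts (n = 6) and 91.3% ± 2.74 in tumour_swim hearts (n = 6). Serpina3h made up 20.5% of the sum in controls, 5.4% in tumour and 4.94% in tumour_swim hearts, and Serpina3c 10.3%, 1.37% and 1.73%. The sum itself was 8.83 ± 1.85, 232 ± 102 and 145 ± 80.4 FPKM. Of the other paralogues in the table, Serpina3a, Serpina3b and Serpina3j had group means of at most 0.0601 FPKM. Serpina3k, a liver-secreted paralogue, had means of 0.201 ± 0.237 in control, 0.167 ± 0.0980 in tumour and 0.274 ± 0.467 in tumour_swim hearts. Its control and tumour_swim means were above those of the members Serpina3g (0.0917 and 0.238) and Serpina3f (0.0283 and 0.0415). In tumour hearts it was below both (0.340 and 0.173). The members were chosen with these data known, so no contrast between members and other paralogues is read.

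The question of the series, whether swimming alters the response to the tumour, is addressed by tumour_swim against tumour. The tumour libraries are those in which the family was noticed, so they are not independent of the choice of members. Of the 7 members, 5 had a group mean of at least 0.5 FPKM and entered the fit, Serpina3m and Serpina3i through the tumour-bearing groups alone; Serpina3g and Serpina3f did not enter. In limma over 13709 genes, with log2(FPKM + 1) and Benjamini-Hochberg adjustment, 0 genes (0.0%) passed an adjusted p of 0.05, with 554 at an unadjusted p under 0.05, and no member passed. Serpina3h had a log2 difference of -0.75 ± 0.18 (SE; 95% interval -1.12 to -0.38) and Serpina3n one of -0.72 ± 0.35 (-1.47 to 0.02). The differences were -0.50 ± 0.23 for Serpina3m, -0.33 ± 0.15 for Serpina3c and -0.07 ± 0.15 for Serpina3i, whose interval ran from -0.37 to 0.24. The adjusted p by limma was 0.957 for each of the 5. The unadjusted p by limma was 0.000481 for Serpina3h, 0.044 for Serpina3m, 0.0452 for Serpina3c, 0.0569 for Serpina3n and 0.655 for Serpina3i. With sample weights in limma Serpina3h passed, at -0.69 with an adjusted p of 0.0356, and the same setting called 45 genes. The median over all tested genes was -0.08. For Serpina3f and Serpina3g two-sided exact permutation tests gave p = 0.0519 and p = 0.372, where 6 against 6 hearts can go no lower than 0.00216. These values are not adjusted, and the one for Serpina3f ranged from 0.0130 to 0.104 in the same exact test as single hearts were left out.

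**Figure D3:**
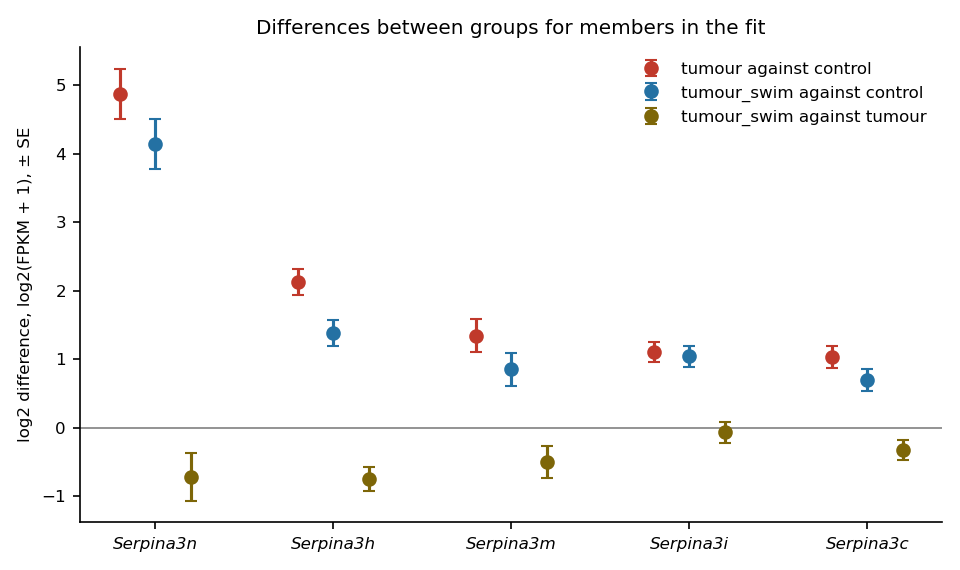
Log2 differences on the log2(FPKM + 1) scale, with SE bars, for the 5 members in the fit and 3 comparisons (colours), from 5 control, 6 tumour and 6 tumour_swim hearts. Serpina3n stands highest against control, at 4.87 in tumour and 4.14 in tumour_swim, and the tumour_swim against tumour points lie between -0.75 and -0.07.

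Swum tumour-bearing hearts carried more Serpina3n and Serpina3h transcript than tumour-free hearts; the control libraries are those of the contrast by which the family was chosen. In tumour_swim against control 124 of 13709 genes (0.905%) passed, 76 of them higher (0.554%); since the controls are shared and some members entered only through the groups where they are high, no count of members is read against these shares. The log2 difference by limma was 4.14 ± 0.37 for Serpina3n (adjusted p = 1.1e-05) and 1.38 ± 0.19 for Serpina3h (adjusted p = 0.00105). Both genes were higher in 6 of 6 swum hearts than in every control. Serpina3i, which entered the fit only through the groups where it is high, differed by 1.04 ± 0.15 (limma, adjusted p = 0.00201), or by 2.53 and 3.13 with pseudocounts of 0.1 and 0.01. Serpina3c differed by 0.70 ± 0.16 (limma, adjusted p = 0.0432), a call that was lost on leaving out any of 12 of the 17 libraries (control 1 to 4, tumour 1, 2 and 4, or tumour_swim 2 to 6), with 0.61 to 0.78 and adjusted p of 0.00977 to 0.0960 over all of them. Serpina3m did not pass, at 0.85 ± 0.24 (limma, adjusted p = 0.118). It passed with a pseudocount of 0.1 (2.87, adjusted p = 0.00405) or 0.01 (5.46, adjusted p = 0.00107) and without tumour_swim 1 (0.91, adjusted p = 0.0276); the fitted value of a gene at 0 in most controls depends on the pseudocount. In tumour against control, which shares its controls with this comparison and is described only, the log2 differences were 4.87 ± 0.37 for Serpina3n, 2.13 ± 0.19 for Serpina3h, 1.34 ± 0.24 for Serpina3m, 1.10 ± 0.15 for Serpina3i and 1.03 ± 0.16 for Serpina3c. There 1161 genes (8.47%) passed, 704 higher (5.14%) and 457 lower (3.33%), and the medians over all tested genes were 0.14 in that comparison and 0.06 in tumour_swim against control.

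Within the tumour hearts Serpina3n and Serpina3m put the animals in the same order, with tumour 3 highest and tumour 5 lowest, and Serpina3c differed from that order by the exchange of tumour 1 and 2. Over the 6 tumour hearts Pearson's r with Serpina3n on log2(FPKM + 1) was 0.97 for Serpina3c, 0.95 for Serpina3m, 0.82 for Serpina3h and 0.46 for Serpina3i. Over the 6 tumour_swim hearts it was 0.73, 0.90, 0.83 and 0.33. Over the 5 controls, where Serpina3m is at 0 in most, r was 0.59, -0.06, -0.45 and -0.35. Serpina3g had an r of -0.56, 0.36 and 0.14 in control, tumour and tumour_swim hearts and Serpina3f one of 0.19, -0.25 and -0.24. These are descriptions over hearts that share library depth and any difference in cell makeup. Likeness to Serpina3n was ranked among 10429 genes averaging 1 FPKM or more, with predicted genes, clones and locus numbers left out. The nearest to Serpina3n over all 17 hearts were Srpx (r = 0.99), the chemokine Cxcl14 (0.98), the matrix protease Mmp3 (0.97), Tmem176a (0.97) and Ifi205 (0.97), where the gap between control and tumour-bearing hearts enters the value. By the mean r within groups they were Fcgr2b, an inhibitory Fc receptor (0.92), the lectin Clec4a1 (0.88), Cnmd (0.86), Ifi211 (0.86) and Cab39l (0.84).

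**Figure D4:**
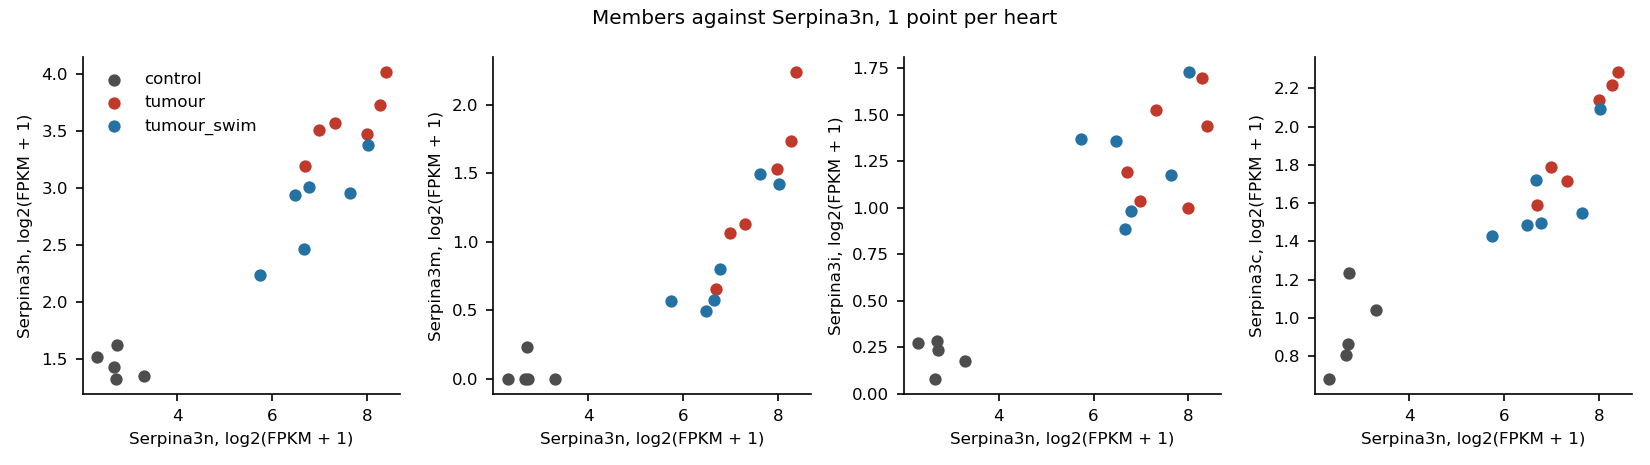
Serpina3h, Serpina3m, Serpina3i and Serpina3c (vertical axes) against Serpina3n (horizontal axes), all as log2(FPKM + 1), with 1 point per heart coloured by group. Tumour-bearing hearts form a rising band for Serpina3h, Serpina3m and Serpina3c, while for Serpina3i (r = 0.46 within tumour hearts) they scatter, and the control hearts lie apart at the lower left.

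Among serine proteases of cytotoxic cells and neutrophils, mean FPKM was at most 0.0516 for Gzmb (granzyme B), 0.0280 for Elane (neutrophil elastase) and 0.0117 for Ctsg (cathepsin G) in any group. Gzma (granzyme A) had mean FPKM of 0.307 ± 0.176 in control, 0.220 ± 0.106 in tumour and 0.0839 ± 0.118 in tumour_swim hearts, and was not tested. Prtn3 (proteinase 3) had mean FPKM of 0.0609 ± 0.0803 in control (SD, n = 5), 0.479 ± 0.276 in tumour (n = 6) and 0.498 ± 0.358 in tumour_swim hearts (n = 6), below the filter and not tested. Of 10 tested proteases in a list of candidate targets, 3 were higher in tumour than in control hearts by limma, Ctsk, Mmp9 and Ctsl, and 1 was lower, Mcpt4. Over all tested genes 5.14% were higher and 3.33% lower. The number called in either direction was 1 to 6 as single libraries were left out, while 542 to 3666 of all tested genes were called. Mmp9, with a control mean of 0.38 FPKM, entered the fit only through the tumour-bearing groups. None of the 10 passed in tumour_swim against control, where 0.905% of all tested genes passed. Ctsl, the lysosomal cathepsin L, had mean FPKM of 25.6 ± 6.14 in control, 47.8 ± 8.58 in tumour and 34.0 ± 11.4 in tumour_swim hearts.

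Among 16 tested genes of IL-6 family signalling and acute phase control, a pathway known to induce SERPINA3, 4 were higher in tumour than in control hearts, Socs3, Osmr, Bcl3 and Cebpd, and 2 in tumour_swim hearts, Socs3 and Cebpd, where 5.14% and 0.554% of all tested genes were higher. As single libraries were left out the counts called in either direction were 3 to 10 and 0 to 9, with 10 and 9 without tumour_swim 1. Without that library 3666 and 2208 of 13786 tested genes were called, so the shares above do not apply to those 10 and 9. Socs3, a feedback inhibitor of this signalling, had mean FPKM of 1.46 ± 0.408 in control (SD, n = 5), 6.09 ± 1.63 in tumour (n = 6) and 4.30 ± 1.64 in tumour_swim (n = 6). Il6 itself did not exceed a mean of 0.0563 FPKM. Among 12 tested serpins of other clades, Serpine2 (protease nexin-1), Serping1 (the C1 inhibitor) and Serpinb6b were higher in tumour hearts and Serpinh1, a collagen chaperone, was lower. Over all tested genes 5.14% were higher and 3.33% lower. In tumour_swim against control only Serpine2 and Serping1 were called, both higher, where 0.905% of all tested genes passed. As single libraries were left out 3 to 6 and 1 to 2 of these serpins were called in the 2 comparisons. Serpine2 had mean FPKM of 4.59 ± 1.36, 25.1 ± 11.6 and 18.8 ± 8.28 in control, tumour and tumour_swim hearts, well below Serpina3n in both tumour-bearing groups. The median log2 difference in tumour against control was 0.62 over the signalling list and 0.15 over these serpins.

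Markers of other cell types were measured in the same hearts. Of 10 fibroblast markers 5 were higher in tumour than in control hearts by limma and 0 in tumour_swim hearts, and of 5 tested neutrophil markers 4 and 2 were. Over all tested genes 5.14% and 0.554% were higher. S100a8, Retnlg and Mmp8 entered the fit only through tumour-bearing groups, with control means of 0.339, 0.336 and 0.00994 FPKM. Neutrophil markers not tested were below the filter in every group, so the neutrophil counts are partly set by the filter. As single libraries were left out the fibroblast counts were 2 to 6 and 0 to 5 and the neutrophil counts 4 to 5 and 2 to 4. Of 10 macrophage markers 4 were higher in tumour than in control hearts by limma, Lyve1, Mrc1, Cd163 and Csf1r, and 0 in tumour_swim hearts. The macrophage counts were 3 to 6 and 0 to 5 as single libraries were left out. For all 3 lists these are calls in either direction. In the same runs 542 to 3666 of all tested genes were called in tumour against control and 55 to 2208 in tumour_swim against control. The highest numbers came without tumour_swim 1, so the shares above do not apply to these ranges. Macrophage markers summed to a median of 181, 252 and 232 FPKM in control, tumour and tumour_swim hearts. Summed over 10 fibroblast markers, the median FPKM was 846 in control hearts (636 to 1165), 1404 in tumour (1229 to 2037) and 1446 in tumour_swim (501 to 1718), and over 10 neutrophil markers 2.08 (1.56 to 3.34), 18.8 (15.1 to 48.7) and 11 (6.41 to 17.2), with Ly6g at 0 in every control and tumour_swim heart. Over 12 hepatocyte markers it was 13.9 (11.5 to 22.6), 40.3 (18.2 to 50) and 33.8 (26.2 to 41.2), and of the 6 tested only Trf and Ahsg were higher in tumour than in control hearts. Mean FPKM in control, tumour and tumour_swim hearts was 10, 25.2 and 19.9 for Trf and 1.32, 9.12 and 7.67 for Ahsg, against 0.959, 0.725 and 1.54 for Alb and 1.71, 0.429 and 1.44 for Apoa2. The part of these cells in the Serpina3 values was not tested, and in bulk RNA more cells of a type and more RNA per cell cannot be told apart. Cardiomyocyte markers summed to a median of 16676, 12051 and 13002 FPKM, but they did not move together. Of the 10 tested, 2 were lower in tumour than in control hearts by limma, Actc1 and Myl3, where 3.33% of all tested genes were lower. The median log2 difference over the list was 0.09 in that comparison. Mean FPKM in control and tumour hearts was 2801 and 1398 for Actc1, against 2112 and 3198 for Myh6, which did not pass.

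Depth was 13.3 to 19.7 M reads per heart (median 15.8), and mitochondrial transcripts took 16.9% to 46.3% of the signal (median 22.1%), with the highest shares in tumour_swim 1 (46.3%) and control 4 (30.8%). Tumour_swim 1 was also the lowest swum heart for Serpina3n, at 52.6 FPKM, and without it the tumour_swim mean was 151 ± 74.0 (SD, n = 5). Without control 1, control 4 and tumour_swim 1, the libraries that earlier results had set apart, the tumour_swim against tumour differences by limma were -0.49 for Serpina3n (adjusted p = 0.64) and -0.63 for Serpina3h (adjusted p = 0.278). Against control they were 4.54 for Serpina3n and 1.43 for Serpina3h, both past the threshold.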

How the data were processed

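Total RNA of 17 hearts was profiled; libraries came from a NEBNext Ultra kit, per the labels' protocols. Tools listed in the submitters' processing notes are fastp, FastQC and bcl2fastq, with build mm10; the sources used here give no aligner, counting method, annotation or strandedness. Deposited values were taken to be FPKM made by the authors, a unit inferred from the values: times GENCODE M21 exon length they give whole reads within 0.1 for 98.6% to 99.0% of low values, which also gave the depth. The positions in the table are not those of GRCm38, and GENCODE M21 supplied them by gene ID.

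All 17 libraries entered a limma 3.58.1 fit (R 4.3.3, two-sided, with an intensity trend) on log2(FPKM + 1). The 13709 genes fitted averaged 0.5 FPKM or more in 1 group or more, with Benjamini-Hochberg adjustment within each comparison at 0.05. Fold changes on this scale understate the change of low genes. Serpina3g and Serpina3f, below the filter, were compared by exact permutation tests (scipy 1.17.1). The fit was tested on simulated data. The members and gene lists were chosen with earlier results of these data known. Named genes were the members, their paralogues, the gene of each list with the smallest p or past the threshold after swimming, and the 5 most like Serpina3n by each of 2 correlations; genes of short lists that passed against control, low-abundance proteases, Il6, Alb and Apoa2 were added after their values were seen. Alternatives covered pseudocount, filter, scaling, weights, a replicate block, the groups fitted and left-out libraries.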

Additional observations from a re-analysis of the deposited data

Results flagged for a closer look

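Hearts that stood apart from the rest of their group by Dixon's test were found in 9 of the 31 groups of values examined over the members and their paralogues. Chance gives about 1 in 20 for normally spread values, a rate that does not apply to groups at 0 in all hearts but 1, so no excess is read from the count. Serpina3m was at 0.175 FPKM in control 4 and at 0 in the other controls. Serpina3f was at 0.116 FPKM in control 5, with the next control at 0.0251. Serpina3k was at 0.615 FPKM in control 4 (next 0.167) and at 1.20 in tumour_swim 1 (next 0.288). The same libraries held the highest values of the liver transcripts Alb, 3.34 and 5.70 FPKM, against at most 2.0 in any other heart, and Apoa2, 5.95 and 3.91 FPKM, against at most 1.92; the part of liver RNA in these values was not tested. The remaining values rest on at most 5 reads each: Serpina3a at 0.154 FPKM in control 1 and 0.102 in tumour_swim 3, Serpina3b at 0.0618 in control 3 and 0.0287 in tumour 6, and Serpina3j at 0.0299 in tumour_swim 5.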

How the results depend on the processing

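Serpina3n, Serpina3h and Serpina3i kept their call in tumour_swim against control under every alternative run. All of these runs use control libraries of the contrast by which the family was chosen, so they are not independent of that choice. With the filter, Serpina3i enters only through the groups where it is high. Serpina3n, Serpina3h, Serpina3m and Serpina3c kept a negative difference in tumour_swim against tumour. Serpina3i ran from -0.16 to 0.01 there as single libraries were left out, and changed sign from -0.07 to 0.04 with median-of-ratios scaling, 0.07 with quantile normalization and 0.01 without tumour 6 or tumour_swim 4; the cause was not tested. Serpina3c lost its call against control without the filter (adjusted p by limma 0.0825), with quantile normalization (0.0654) and with only the groups compared (0.107). Genes called in tumour_swim against tumour were 0, but 1 without the filter, 45 with sample weights and 1 without control 1, control 4 and tumour_swim 1. In tumour_swim against control they were 124, but 78 without the filter, 366 with median-of-ratios scaling, 373 with quantile normalization, 515 with sample weights, 352 without those 3 libraries and 48 with only the groups compared, and 55 to 2208 as single libraries were left out, the latter without tumour_swim 1. In tumour against control they were 1161, but 1945, 2092 and 2124 with median-of-ratios scaling, quantile normalization and only the groups compared, and 542 (without control 1) to 3666 (without tumour_swim 1). The exact permutation p of Serpina3f, 0.0519, ranged from 0.0130 to 0.104 as single hearts were left out. Correlations of same-numbered deviations ran from -0.67 to 0.68, and 3 of 6 between tumour and tumour_swim were over 0.1. Whether replicate numbers pair the hearts is therefore not known. With the replicate block Serpina3n differed by -0.72 from tumour and 3.96 from control, the Serpina3c call against control was lost (0.63, adjusted p by limma 0.103), and the genes called were 0, 84 and 861 in the order above. Depth limits Serpina3g, Serpina3f and control Serpina3m, which rest on few reads.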

Other observations

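The gene of each further list with the smallest p after swimming differed from tumour by less than the threshold asks, with a limma adjusted p of 0.957 for each. S100a8, a calprotectin subunit of neutrophils, had mean FPKM of 0.339 in control, 6.28 in tumour and 2.81 in tumour_swim hearts, with a log2 difference of -0.91 ± 0.24 after swimming. Serpinb6b, an intracellular serpin, had mean FPKM of 26.3, 40.7 and 29.6 and a difference of -0.44 ± 0.11. With sample weights both passed in limma, with adjusted p of 0.0339 for S100a8 and 0.0187 for Serpinb6b. The differences were -0.63 ± 0.25 for the interferon gamma target Iigp1, -0.65 ± 0.34 for the macrophage gene Lyve1, -0.52 ± 0.27 for the acute phase protein Cp, -0.45 ± 0.24 for the fibroblast gene Lum and -0.30 ± 0.23 for the endothelial gene Cldn5. They were 0.54 ± 0.21 for the cardiac actin Actc1, 0.43 ± 0.25 for the mast cell protease Mcpt4, 0.40 ± 0.21 for the hepatocyte marker Ttr and 0.12 ± 0.16 for Serpina1b, the clade A serpin that passed the filter outside the Serpina3 cluster. Of 21 listed acute phase genes, the metallothioneins Mt1 and Mt2 among them, 9 were abundant enough to be fitted. Against control, 9 were higher in tumour and 8 in tumour_swim hearts, with median log2 differences of 1.80 and 1.77. Over all tested genes 5.14% and 0.554% were higher, and the medians were 0.14 and 0.06. Hp and Mt2, with control means of 0.324 and 0.375 FPKM, entered the fit only through the tumour-bearing groups, so the counts are partly set by the filter. As single libraries were left out 8 to 9 and 6 to 9 were called, against 542 to 3666 and 55 to 2208 of all tested genes. T and NK cell markers summed to a median of 1.05, 1.03 and 0.991 FPKM in control, tumour and tumour_swim hearts.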
